A study of Rattus norvegicus with 16 samples.

Results

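The genes examined were 10 genes of brain endothelium and the blood-brain barrier: Cldn5, Ocln, Tjp1, Cdh5, Pecam1, Vwf, Slc2a1, Flt1, Kdr and Tek. They were chosen by name, as the probes whose design gene in the scanner files is one of the 10, and 13 of the 30367 probes of the array matched. Tjp1 had 2 probes, Vwf had 3 and each other gene had 1. All 13 were among the 22787 probes tested. Whole hippocampus of male Sprague-Dawley rats was measured on 16 single-colour Agilent arrays, with 1 rat per array, 24 h after severe fluid percussion injury or the equivalent time. The 3 Naïve rats were neither anesthetized nor injured, and the 2 Sham rats were anesthetized and prepared for injury but not injured. The 3 TBI rats were injured and received no drug. The remaining rats received the same injury and a drug: 3 received PMI-006 (TBI+PMI) and 3 received JM6 (TBI+JM6), both by mouth, and 2 received E33, an estrogen (TBI+E33). The labels give a subcutaneous route for E33, whereas the methods give an intraperitoneal one. Although the methods describe 3 rats for each of the 6 conditions, 2 Sham and 2 TBI+E33 rats were analysed here.

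The blood-brain barrier is formed by endothelial cells that are sealed to each other by tight junctions and carry their own nutrient transporters. Claudin-5 (Cldn5) is the main barrier claudin of brain endothelium, occludin (Ocln) is a second junction-spanning protein, and zonula occludens-1 (Tjp1) ties both to the actin skeleton. VE-cadherin (Cdh5) and PECAM-1 (Pecam1) hold endothelial cells together outside the tight junction, von Willebrand factor (Vwf) is the platelet-binding protein that endothelium stores and secretes, and Slc2a1 (Glut1) brings glucose into the brain. Flt1 and Kdr are receptors for vascular endothelial growth factors, and Tek (Tie2) is the receptor for angiopoietins. Brain trauma is known to open this barrier.

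The 60 bases of 5 probes are shown because the comparisons below turn on them: Cldn5 as the 1 member called after injury, Cdh5, Flt1 and Tek as the members that were called with it in every drug group, and the first Vwf probe as the largest positive difference after injury among the counted probes. The probes are in lower case and the positions are the rn4 positions in the scanner files: chr11_random:1224740-1224799 on the minus strand for Cldn5, chr19:779665-779724 on the minus strand for Cdh5, chr12:7957094-7957153 on the plus strand for Flt1, chr5:115178576-115178635 on the plus strand for Tek and chr4:161854554-161854613 on the plus strand for Vwf probe 1. A gene annotation of rn4 was not used here, so exons are not named.
Cldn5: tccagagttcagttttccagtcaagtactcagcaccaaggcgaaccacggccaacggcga
Cdh5: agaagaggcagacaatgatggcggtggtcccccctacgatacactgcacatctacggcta
Flt1: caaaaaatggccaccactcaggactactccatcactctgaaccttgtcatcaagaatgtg
Tek: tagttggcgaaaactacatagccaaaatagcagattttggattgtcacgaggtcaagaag
Vwf probe 1: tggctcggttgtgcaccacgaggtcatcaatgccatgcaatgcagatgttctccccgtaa

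Values are log2 of the intensity divided by the 75th percentile of the probes well above background on the same array, so 0 is the level of that percentile. A probe was well above background on an array by the scanner software's own mark. Of the 13 probes, 11 were well above background on 16 of 16 arrays. The Tek probe was well above background on 4 arrays, which were 1 of 3 TBI+PMI and 3 of 3 TBI+JM6 arrays. The third Vwf probe was well above background on 7 arrays, all of them from drug-treated rats. None of the 13 was saturated on any array. RNA of 9 of the 10 genes was thus detected in every library, and which cells it came from was not measured. In RNA of whole tissue, fewer endothelial cells and less RNA per endothelial cell cannot be told apart.

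The arrays lay on 4 slides that were scanned in 2 sessions. All Naïve, Sham and TBI arrays belonged to the first session and all drug arrays to the second. An array of the first session had 16570 to 18479 probes well above background, and an array of the second had 20267 to 25037. Treatment and scan session therefore cannot be told apart wherever a drug group is set against TBI. Both Sham arrays shared a slide with Naïve 1 and 2, and the TBI arrays shared another with Naïve 3. No slide held both Sham and TBI arrays, so TBI vs. Sham is mixed with the slide, and only Naïve arrays lay on both. Naïve 2, Sham 1 and TBI+PMI 1 stood apart by choroid plexus markers, whose summed signal was 77.6, 123 and 153 times the 75th percentile, against 0.196 to 7.64 on the other 13 arrays. Each count of calls between groups that hold one of these 3 arrays was therefore also run without them.

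**Figure D1:**
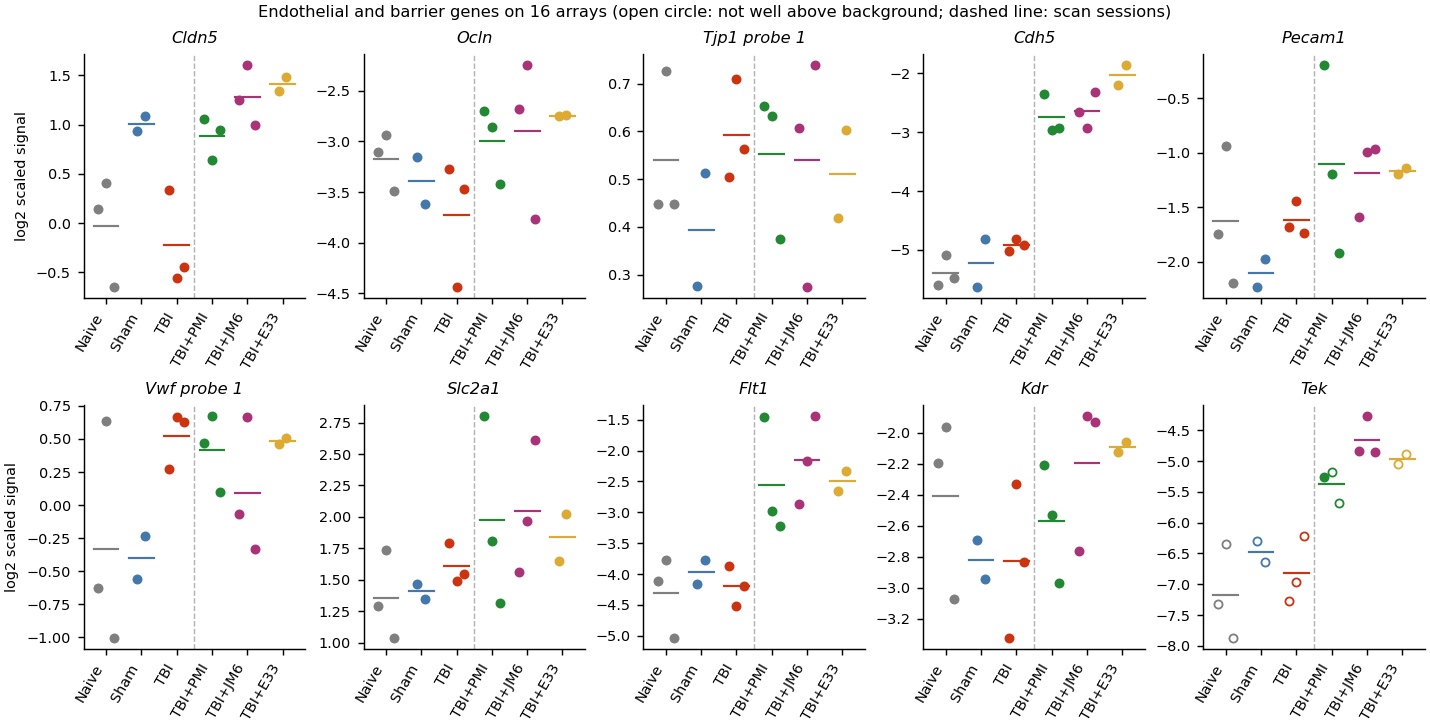
Log2 scaled signal (y axis, in units of log2 of the signal over the 75th percentile of its array) of the counted probe of each gene by group (x axis), with 1 point per array and a bar at the group mean. Open circles are arrays on which the probe was not well above background, and the dashed line separates the scan sessions: Cdh5, Flt1 and Tek do not overlap across it. The share of all tested probes that do so was not computed.

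Injury was compared with Sham to see the difference beyond anesthesia and surgery. Of the 10 genes, Cldn5 was called lower, 9 were not called and none was called higher in TBI vs. Sham, where 9.38% of all tested probes were called, 2.91% as higher and 6.46% as lower. At an unadjusted p under 0.05 there were 2, Cldn5 and Vwf. After quantile normalization Cldn5 was not called (adjusted p = 0.0566), where 7.94% of all tested probes were. Cldn5 was 0.93 and 1.08 on the Sham arrays and 0.34, -0.56 and -0.45 on the TBI arrays. The groups did not overlap, as was the case for 23.8% of all tested probes in that direction. The difference was -1.23 ± 0.33 on the log2 scale (SE, limma, adjusted p = 0.0352), or 2.35-fold lower in TBI. On the Naïve arrays Cldn5 was 0.14, 0.41 and -0.65, which overlapped the TBI arrays and lay below both Sham arrays. The lowest of all values belonged to the Naïve array that shared the slide of the TBI arrays.

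The Cldn5 call rested on single arrays. It held without TBI 1 (-1.51, adjusted p = 0.00697) and was lost without Sham 1 (-1.31, adjusted p = 0.119), Sham 2 (-1.15, adjusted p = 0.164), TBI 2 (-1.06, adjusted p = 0.113) or TBI 3 (-1.12, adjusted p = 0.115). With the slide as a fixed block the difference was -0.31 (limma, adjusted p = 0.915), and with the slide as a random block it was -1.34 and called (adjusted p = 0.0107). After quantile normalization it was -1.15 (adjusted p = 0.0566), and without the 3 arrays rich in choroid plexus markers it was -1.31 (adjusted p = 0.136). The sign was negative in every one of these fits.

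The other tight junction members did not pass the test. Ocln was -3.16 and -3.62 on the Sham arrays and -3.28, -4.44 and -3.47 on the TBI arrays, and the groups overlapped (difference -0.34, 95% interval -1.26 to 0.59). Tjp1 probe 1, the brighter of its 2 probes, was 0.28 and 0.51 in Sham and 0.50, 0.71 and 0.56 in TBI (difference 0.20, 95% interval -0.20 to 0.60). Tjp1 probe 2 lay lower in TBI, at -3.26, -2.54 and -2.27 against -2.01 and -2.15, without overlap (difference -0.61, adjusted p = 0.143). The 2 probes of Tjp1 thus differed in sign and neither was called.

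Among the adhesion proteins, Cdh5 was -5.63 and -4.81 in Sham and -5.03, -4.81 and -4.92 in TBI (difference 0.30, 95% interval -0.31 to 0.92). The spread in Sham covered the TBI values. Pecam1 was -2.23 and -1.98 in Sham and -1.68, -1.44 and -1.74 in TBI, without overlap, but the difference of 0.48 was not called (adjusted p = 0.515).

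Vwf had the largest positive difference among the counted probes after injury and was not called. Its first probe was -0.56 and -0.24 in Sham and 0.27, 0.66 and 0.63 in TBI (difference 0.92 ± 0.41, SE, adjusted p = 0.178). The second probe, at chr4:161854702-161854759 in rn4, gave 0.86 ± 0.41 (SE, adjusted p = 0.204). On both probes the TBI arrays lay above both Sham arrays, as was the case for 16.8% of all tested probes. Naïve 2 lay among the TBI arrays on the first probe, at 0.63, while Naïve 1 and 3 were -0.62 and -1.004.

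The glucose transporter and the receptors were not called. Slc2a1, with 10 spots per array and a median spot SD of 0.07 on the log2 scale, was 1.47 and 1.35 in Sham and 1.80, 1.49 and 1.55 in TBI, without overlap (difference 0.20, 95% interval -0.64 to 1.05). Flt1 was -4.16 and -3.77 in Sham and -3.87, -4.51 and -4.19 in TBI (difference -0.23, 95% interval -1.37 to 0.92). Kdr was -2.69 and -2.94 in Sham and -3.32, -2.33 and -2.83 in TBI (difference -0.01, 95% interval -0.84 to 0.82). Tek was not well above background on any Naïve, Sham or TBI array, so no fold is given for it among these groups.

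In TBI vs. Naive, 0 of the 10 genes were called by limma, where 4.71% of all tested probes were, and 1 gene had an unadjusted p under 0.05. That gene was Vwf, at 0.85 ± 0.37 (SE, adjusted p = 0.205), and without Naïve 2 it was called, at 1.33 (adjusted p = 0.0321). Cdh5 was -5.60, -5.09 and -5.48 in Naïve rats, below all TBI arrays, as was the case for 12.2% of all tested probes, with a difference of 0.47 (adjusted p = 0.314). The intervals of the 10 genes ran from -1.38 to 1.64, and were narrowest for Tjp1, at -0.31 to 0.41.

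Surgery alone was compared with no handling. In Sham vs. Naive, 0 of the 10 genes were called by limma, where 8.08% of all tested probes were, and 1 gene, Cldn5, had an unadjusted p under 0.05. Cldn5 was higher on both Sham arrays than on all Naïve arrays, as was the case for 24.4% of all tested probes, with a difference of 1.04 ± 0.33 (SE, adjusted p = 0.0704). It was called without Naïve 2 (1.26, adjusted p = 0.0463), and with the slide as a fixed block the difference was 0.73 (adjusted p = 0.390). Within the slide that held both Sham arrays, the Naïve arrays were 0.14 and 0.41. Cldn5 was thus lower in TBI than in Sham by the test, while TBI and Naïve differed by -0.19 (95% interval -0.82 to 0.44).

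**Figure D2:**
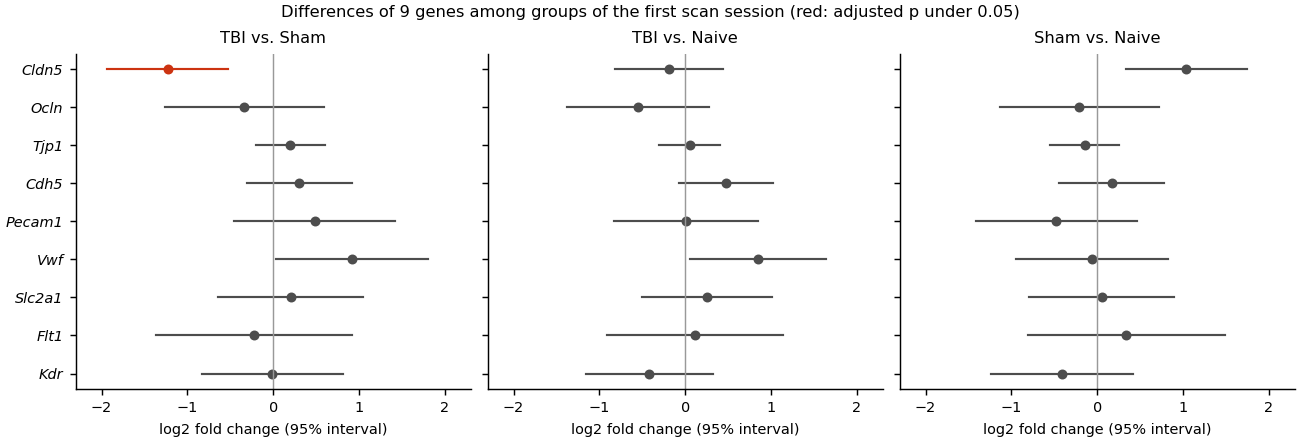
Log2 fold change (x axis) with its 95% interval for 9 of the genes (y axis) in TBI vs. Sham, TBI vs. Naive and Sham vs. Naive, from limma over all 16 arrays. Tek is left out because it was not well above background in these groups, and Cldn5 in TBI vs. Sham, in red at -1.23, is the 1 gene called.

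Genes that act with these 10 were taken from lists. In TBI vs. Sham, 6.46% of all tested probes were called lower. The list counts below were near that share and are not read as a trait of the lists. In TBI vs. Sham, 1 of 18 junction partners was called, as lower: Jam3, a junctional adhesion molecule, was -0.14 to -0.11 in Sham and -1.40 to -0.63 in TBI (difference -0.93, adjusted p = 0.0291). Of 12 barrier transporters, 1 was called lower, the glutamine transporter Slc38a3 (-1.15, adjusted p = 0.0366). Of 24 other endothelial genes, 1 was called lower, the sphingosine-1-phosphate receptor S1pr1 (-0.77, adjusted p = 0.0441). The list medians were -0.16, -0.63 and -0.27, against -0.03 over all tested probes. After quantile normalization Jam3 stayed called (-0.82, adjusted p = 0.0393) and the transporter and S1pr1 did not (adjusted p = 0.0510 and 0.0714).

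In TBI vs. Naive, where 2.98% of all tested probes were called higher and 1.73% lower, 3 of the 24 other endothelial genes were called lower and none higher. These were the transcription factor Foxq1 (-1.19, adjusted p = 0.0421), S1pr1 (-1.10, adjusted p = 0.0111) and Ptprb, the phosphatase VE-PTP, which acts on Tek and Cdh5 (-1.05, adjusted p = 0.0292). After quantile normalization 2 of the 24 were called lower and none higher. Of 6 endothelial activation genes, the leukocyte adhesion molecule Icam1 was called higher, at 1.44 (adjusted p = 0.0339). Icam1 was -4.30 to -2.88 in Naïve rats and -2.66 to -2.03 in TBI rats. In Sham vs. Naive, Jam3 (1.10, adjusted p = 0.0149), Ctnnb1, which encodes beta-catenin (0.73, adjusted p = 0.0490), and the large neutral amino acid transporter Slc7a5 (1.01, adjusted p = 0.0166) were called higher, where 6.57% of all tested probes were. Fli1, an endothelial transcription factor, was at least 1.53-fold higher in Sham (adjusted p = 0.0282), a call lost after quantile normalization (adjusted p = 0.131). Jam3 was thus higher in Sham than in both Naïve and TBI, and both comparisons use the same Sham arrays as those of Cldn5. No TBI array shared a slide with a Sham array, and the list genes were not fitted with the slide as a block.

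Of the 11 tested ligands and co-receptors of Flt1, Kdr and Tek, 1 was called in TBI vs. Sham, where 9.38% of all tested probes were. This was Vegfb, a ligand of Flt1, whose single probe took widely separated levels. It was -2.39 to -0.99 on 8 arrays and -8.18 to -5.17 on the other 8. The lower arrays were both Sham, TBI+PMI 3, all TBI+JM6 and both TBI+E33 arrays, of which TBI+JM6 3 alone was well above background. Vegfb was at least 20.6-fold higher in TBI than in Sham (limma, adjusted p = 0.0204) and at least 33.6-fold higher in Naïve than in Sham (adjusted p = 0.0122), and the TBI+PMI arrays, from rats treated alike, lay at both levels.

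Markers of other cells were counted in the same comparison, where 2.91% of all tested probes were called higher and 6.46% lower. These counts too are mixed with the slide. In TBI vs. Sham, 5 of 7 leukocyte markers were called higher and none lower, and their summed signal was 0.32 to 0.47 in Sham and 0.70 to 3.31 in TBI. Of 12 pericyte and smooth muscle markers, the potassium channel gene Kcnj8 was called higher (0.99, adjusted p = 0.0380) and none lower. Of 6 oligodendrocyte markers 3 were called lower, and of 7 neuronal markers 2 were called lower. Of 8 microglial markers 2 were called higher and 2 lower, of 6 meningeal markers 1 was called lower, and of 8 astrocyte and 6 choroid plexus markers none was called. Red blood cell markers (4 tested) and platelet markers (4 tested) had no calls in either direction, with summed red blood cell signal of 49.3 to 63.8 in Sham and 32.6 to 57.8 in TBI. The part of these cells in the values of the 10 genes was not tested.

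Each drug group was compared with TBI to see the difference that goes with treatment. In TBI+PMI vs. TBI, 4 of 10 genes were called higher and none lower, where 56.7% of all tested probes were called. In TBI+JM6 vs. TBI and TBI+E33 vs. TBI the counts were again 4 higher and none lower, where 70.1% and 70.4% of all tested probes were called. As higher alone, 56.7%, 69.9% and 70.3% of all tested probes were called. The same 4 genes, Cdh5, Cldn5, Flt1 and Tek, were called in each. Tek was tested only because all TBI+JM6 arrays detected it, and its calls are not read as a result. In TBI+E33 vs. TBI no array of either group was well above background for Tek. The calls that do not rest on that filter were those of Cdh5, Cldn5 and Flt1. These comparisons share the TBI arrays and the difference between sessions. The share of members called was below that of all probes, and the median of the 10 genes, 0.62, 0.73 and 0.86, lay below the median of all tested probes, 0.79, 0.996 and 1.08. Members were counted by their brightest tested probe, and among all tested probes the brighter had smaller drug differences, as given below. The shortfall is therefore not read as a trait of the members.

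Cdh5 showed the largest separation. It was -5.63 to -4.81 on the 8 arrays of the first session and -2.96 to -1.86 on the 8 drug arrays. On the single arrays it was -2.34, -2.96 and -2.92 with PMI-006, -2.66, -2.92 and -2.32 with JM6, and -2.20 and -1.86 with E33. The differences from TBI were 2.18 ± 0.25, 2.28 ± 0.25 and 2.89 ± 0.28 (SE, adjusted p = 3.79e-05, 1.42e-05 and 8.71e-06). They exceeded the median of all tested probes by 1.39, 1.29 and 1.81, although 12.6%, 16.2% and 11.2% of all tested probes had larger differences. Quantile normalization forces all arrays to one common distribution, and after it 19.2%, 27.2% and 20.4% of all tested probes were called. Cdh5 was then the 1 member still called higher, at 1.05, 0.96 and 1.57 (adjusted p = 0.00680, 0.00695 and 0.00165). After normexp background correction it was 0.69 with PMI-006 (adjusted p = 0.522) and 1.62 with E33 (adjusted p = 0.0541), no longer called.

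Cldn5 was 1.06, 0.65 and 0.95 with PMI-006, 1.25, 1.60 and 1.002 with JM6, and 1.35 and 1.49 with E33. Every drug array lay above every TBI array, as was the case for 61.6%, 71.7% and 83.7% of all tested probes, and the range overlapped that of Sham. The differences from TBI were 1.11 ± 0.29, 1.51 ± 0.29 and 1.64 ± 0.33 (SE, adjusted p = 0.00634, 0.000658 and 0.000852). After quantile normalization they were 0.60, 0.86 and 0.99 and none was called (adjusted p = 0.179, 0.0520 and 0.0577). By group mean, the Cldn5 levels stood in the order TBI (-0.22), Naïve (-0.03), TBI+PMI (0.89), Sham (1.01), TBI+JM6 (1.28) and TBI+E33 (1.42), and of neighbours in this order the arrays overlapped in all but Naïve and TBI+PMI.

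Flt1 was -1.46, -2.97 and -3.23 with PMI-006, -2.87, -2.16 and -1.44 with JM6, and -2.66 and -2.32 with E33. All 8 drug arrays lay above the 8 other arrays, whose highest value was -3.77. As most tested probes lay above TBI without overlap in each drug group, this is not read as a trait of Flt1. The differences from TBI were 1.64 ± 0.47, 2.03 ± 0.47 and 1.70 ± 0.53 (SE, adjusted p = 0.0107, 0.00229 and 0.0125). The E33 call was lost without TBI+E33 2 (1.54, adjusted p = 0.0829), and the PMI-006 call without the arrays rich in choroid plexus markers (1.09, adjusted p = 0.0507). After quantile normalization the differences were 0.63, 0.90 and 0.40 and none was called (adjusted p = 0.344, 0.156 and 0.609).

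Tek was -7.27, -6.96 and -6.22 in TBI, with no array well above background. It was -4.84, -4.27 and -4.85 with JM6, all well above background, which is at least 2.48-fold higher than in TBI. With PMI-006 it was -5.26, -5.17 and -5.68, with 1 of 3 arrays well above background and a difference of at least 1.51-fold. With E33 it was -5.05 and -4.89 and no array was well above background, so no fold is given. Because Tek passed the filter on dim probes through TBI+JM6 alone, where it was highest, its p-values are not given. After quantile normalization Tek was not called in any drug group, and its sign turned negative with PMI-006 (-0.33) and E33 (-0.50).

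Of the 6 genes that were not called, Ocln, Pecam1, Kdr and Slc2a1 were above 0 or below it depending on the normalization, and Tjp1 and Vwf were below 0 by both. Ocln was 0.73, 0.83 and 0.98 above TBI (adjusted p = 0.116, 0.0688 and 0.0554) and was called without TBI 1 in TBI+JM6 (1.05, adjusted p = 0.0449) and TBI+E33 (1.21, adjusted p = 0.0369), and without TBI+JM6 3 (1.26, adjusted p = 0.00857). Pecam1 differed by 0.52, 0.44 and 0.45 and was called with PMI-006 only when TBI+PMI 3 was left out (0.92, adjusted p = 0.0464). Kdr differed by 0.26, 0.63 and 0.74, and was called without TBI 2 in TBI+JM6 (0.88, adjusted p = 0.0450) and TBI+E33 (0.99, adjusted p = 0.0413) and without TBI+JM6 1 (0.92, adjusted p = 0.0355). Slc2a1 differed by 0.37, 0.44 and 0.23. After quantile normalization all 4 of these genes had negative differences in each drug group, and none was called. Of the 10 genes, 8 were above 0 in each drug group by the 75th percentile scaling and 3, 4 and 3 by quantile normalization.

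**Figure D3:**
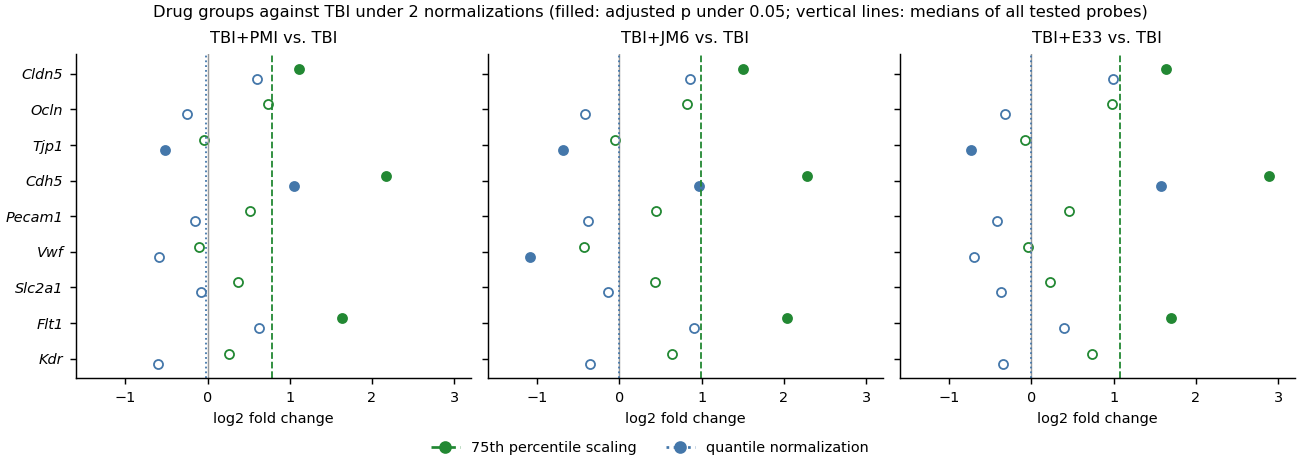
Log2 fold change against TBI (x axis) for 9 of the genes (y axis) in each drug group, after 75th percentile scaling (green) and quantile normalization (blue), with filled points called at an adjusted p under 0.05. Dashed and dotted lines are the medians of all tested probes, 0.79 to 1.08 and about 0, and Cdh5 lies right of the median by both while Tjp1 and Vwf lie left of it. Tek is left out because it was not well above background in TBI.

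The probes of Tjp1 and Vwf did not move together. Tjp1 probe 1, of 10 spots per array, was 0.27 to 0.74 on the drug arrays and 0.28 to 0.73 on the others, and its differences from TBI were -0.04, -0.05 and -0.08. Tjp1 probe 2 was -1.79 to -1.18 on the drug arrays and -3.26 to -2.01 on the others, and was called higher, at 0.998, 1.37 and 1.07 (adjusted p = 0.00251, 0.000203 and 0.00246). Relative to the median of all tested probes, probe 1 lay 0.83, 1.05 and 1.16 lower and probe 2 lay 0.21 higher, 0.38 higher and 0.01 lower. After quantile normalization probe 1 was called lower, at -0.51, -0.69 and -0.73 (adjusted p = 0.0136, 0.00240 and 0.00445), and probe 2 was not called. The probes lie at chr1:119685220-119685279 and chr1:119689604-119689663 in rn4, both on the minus strand.

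Vwf probes 1 and 2 differed from TBI by -0.43 to 0.20 in the drug groups, and after quantile normalization both were called lower with JM6 (-1.09, adjusted p = 0.0370, and -0.96, adjusted p = 0.0411). Vwf probe 3, at chr4:161738186-161738245, lies apart from the others in rn4 and was dim. It was not well above background on any array of the first session and was at least 1.33-fold, 1.83-fold and 2.76-fold higher than in TBI with PMI-006, JM6 and E33. It passed the filter only through TBI+JM6 and TBI+E33, where it was high, so its p-values are not given. Across all tested probes the size of the drug differences went with signal. Of 4 classes of equal size by mean signal, the dimmest had median differences of 1.91 to 2.61 and the brightest of 0.35 to 0.50. The brighter Tjp1 probe, the first Vwf probe, Cldn5 and Slc2a1 belonged to the brightest class, Cdh5, Flt1 and Ocln to the next-to-dimmest, and Tek and Vwf probe 3 to the dimmest. The part of signal level in the members' differences was not tested.

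**Figure D4:**
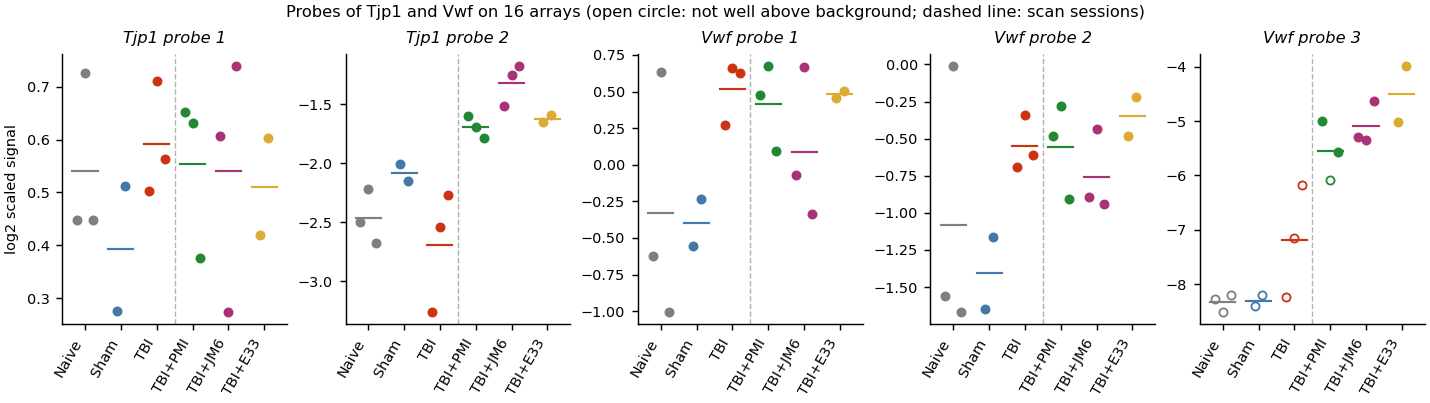
Log2 scaled signal (y axis) of the 2 Tjp1 probes and 3 Vwf probes by group (x axis), with 1 point per array and a bar at the group mean; open circles are arrays not well above background. Tjp1 probe 2 and Vwf probe 3 are higher right of the dashed line between scan sessions, and Tjp1 probe 1 spans 0.28 to 0.73 on one side and 0.27 to 0.74 on the other. Vwf probes 1 and 2 overlap across the line, with lower lowest values in the first session.

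The lists around the receptors and junctions are read against the 56.7%, 69.9% and 70.3% of all tested probes called higher with PMI-006, JM6 and E33. After quantile normalization 19.2%, 27.2% and 20.4% of all tested probes were called in either direction. Their genes too were counted by the brightest tested probe, with the same limit. Of 24 other endothelial genes, 14, 18 and 15 were called higher with PMI-006, JM6 and E33 and none lower, with medians of 1.08, 1.04 and 1.28 against 0.79, 0.996 and 1.08 over all tested probes. After quantile normalization 3, 2 and 2 of them were called higher and 0, 0 and 1 lower. Fli1 and Erg, which are ETS transcription factors of endothelium, were called higher by both normalizations in each drug group. They were picked after their values had been seen, so they are not read as a trait of the list. Fli1 was -6.88 to -5.94 in TBI with no array well above background and -3.55 to -2.42 on the drug arrays, at least 5.62-fold, 8.31-fold and 8.55-fold higher. Erg was -5.02 to -3.67 in TBI and -2.64 to -1.83 on the drug arrays. For Fli1 the quantile differences were 1.56, 1.999 and 1.89, and for Erg 0.98, 1.13 and 1.18.

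Of 11 ligands and co-receptors, 7, 6 and 6 were called higher with PMI-006, JM6 and E33, and 0, 1 and 1 lower. Nrp2, a co-receptor for vascular endothelial growth factors, was at least 6.21-fold, 6.05-fold and 8.07-fold higher and was not well above background on any TBI array. Angpt1, the angiopoietin that activates Tek, was at least 1.42-fold, 1.64-fold and 2.19-fold higher and was not called after quantile normalization. The gene called lower with JM6 and E33 was Vegfb, with the separated levels given above. After quantile normalization 1, 1 and 1 of the 11 were called higher and 1, 2 and 2 lower. Of 18 junction partners, 9, 12 and 10 were called higher, with medians of 0.77, 0.85 and 0.85, below those of all tested probes, and after quantile normalization 0, 1 and 0 were called higher and 0, 0 and 2 lower. Of 12 barrier transporters, 3, 6 and 5 were called higher, and Slc7a5 was the 1 called higher after quantile normalization, with JM6 (0.80, adjusted p = 0.0103) and E33 (0.83, adjusted p = 0.0191), while 0, 1 and 1 transporters were called lower. Of 6 endothelial activation genes, 1, 4 and 3 were called higher by the 75th percentile scaling, and after quantile normalization none was called higher and 1, 1 and 0 lower.

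The drug groups were set against each other within the second session. All TBI+PMI arrays shared a slide with TBI+JM6 1, and both TBI+E33 arrays shared another with TBI+JM6 2 and 3. PMI-006 against E33 therefore cannot be told apart from the slide, and JM6 against either is partly mixed with it. In TBI+JM6 vs. TBI+PMI, TBI+JM6 vs. TBI+E33 and TBI+PMI vs. TBI+E33, 0 of the 10 genes were called by limma, where 0.0132%, 0.0176% and 0.11% of all tested probes were. At an unadjusted p under 0.05 there were 0, 0 and 1, the last being Cdh5, which was lower with PMI-006 than with E33 by -0.71 (95% interval -1.32 to -0.10, adjusted p = 0.263). In TBI+JM6 vs. TBI+PMI the widest difference was 0.71 for Tek. No interval is given for it, because Tek passed the filter on dim probes through TBI+JM6 alone. In TBI+JM6 vs. TBI+E33 the widest was -0.60 for Cdh5 (95% interval -1.21 to 0.01). Over the genes other than Tek the intervals ran from -1.32 to 1.48, so a p that missed the threshold does not show that the drug groups were alike. PMI-006, JM6 and E33 are different compounds and their doses were not matched.

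Within groups, most pairs of the genes varied in the same direction from rat to rat. After each group's mean was taken from each gene, 41 of the 45 pairs of genes had a correlation above 0 across the 16 arrays, with a median r of 0.42 and a range of -0.40 to 0.94. Arrays of one group share a mean that was taken away, and arrays on one slide share its processing. Correlations over pairs of all tested probes were not computed, so these values do not show that the covariation is particular to the 10 genes. The highest pair was Flt1 and Slc2a1 (r = 0.94), followed by Pecam1 and Slc2a1 (0.87), Pecam1 and Flt1 (0.85), Vwf and Tek (0.84) and Tjp1 and Cdh5 (0.81). Tek was well above background on 4 of the 16 arrays, so its correlations and its part in the mean profile rest mostly on dim values. Pecam1 followed the mean of the other 9 genes most closely (r = 0.92) and Ocln least (r = 0.18). The mean profile of the 10 genes was highest on Naïve 2 and TBI+PMI 1, at 1.41 and 1.15 standardised units, and lowest on Naïve 3 and TBI+PMI 3, at -1.27 and -1.05.

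**Figure D5:**
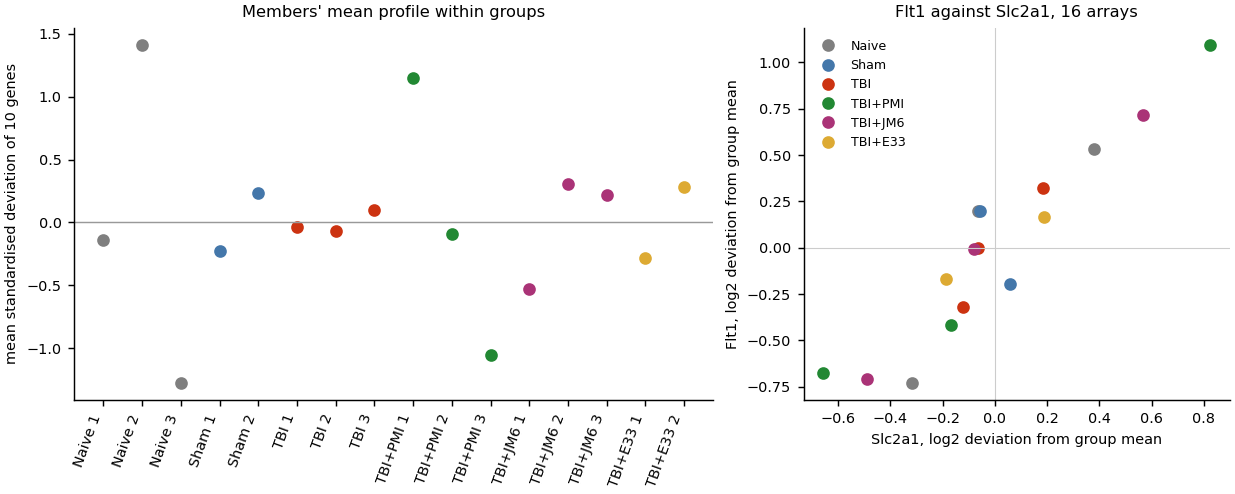
Left, mean standardised deviation of the 10 genes from their group means (y axis) on each array (x axis), with Naïve 2 at 1.41 and Naïve 3 at -1.27. Right, log2 deviation from the group mean of Flt1 (y axis) against Slc2a1 (x axis) on the 16 arrays, coloured by group (r = 0.94).

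Naïve 2 and TBI+PMI 1 were also high in markers of other tissue. Besides the choroid plexus sums above, summed markers of the meninges were 6.31 and 3.43 on these arrays and 0.54 to 1.76 on the other 14, and summed red blood cell markers were 87.6 and 83.8 against 30.1 to 63.8. Sham 1, which had a choroid plexus sum of 123, had a mean profile of -0.23 and a meninges sum of 1.004. The part of such tissue in the covariation was not tested. The 5 genes outside the set that followed the mean profile most closely, among 14295 probes compared, were Sigirr (r = 0.97), Sned1 (0.96), Slc22a18 (0.94), Egfl7 (0.94) and Lsr (0.94). After quantile normalization their r was 0.87 to 0.94.

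The promoters of Flt1 and Slc2a1 are shown as those of the most closely covarying pair. RefSeq sequences of the GRCr8 assembly held a promoter for 6 of the 10 genes, Cldn5, Ocln, Tjp1, Slc2a1, Flt1 and Kdr. The 250 bases before the start site were searched on both strands for the GC box GGGCGG, the hypoxia response core ACGTG and the ETS motif CCGGAAG. These are held by 30.5%, 16.6% and 7.27% of the 33469 promoters of that length. The GC box was found in 4 of the 6 (Cldn5, Slc2a1, Flt1 and Kdr), the hypoxia response core in 1 (Slc2a1) and CCGGAAG in none. Only these exact letters were searched, so shorter or other forms of an ETS site were not counted. Capitals mark the matches in these sequences, read in the direction of the gene, of chr12:12333180-12333429 and chr5:138002272-138002521, both on the plus strand. Both hold 3 GC boxes, and Slc2a1 also holds 1 hypoxia response core.
Flt1: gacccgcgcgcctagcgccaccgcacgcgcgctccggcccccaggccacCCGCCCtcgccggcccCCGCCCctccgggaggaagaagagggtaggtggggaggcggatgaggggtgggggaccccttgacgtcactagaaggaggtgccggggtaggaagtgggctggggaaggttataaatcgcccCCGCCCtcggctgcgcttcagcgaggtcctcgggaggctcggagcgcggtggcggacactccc
Slc2a1: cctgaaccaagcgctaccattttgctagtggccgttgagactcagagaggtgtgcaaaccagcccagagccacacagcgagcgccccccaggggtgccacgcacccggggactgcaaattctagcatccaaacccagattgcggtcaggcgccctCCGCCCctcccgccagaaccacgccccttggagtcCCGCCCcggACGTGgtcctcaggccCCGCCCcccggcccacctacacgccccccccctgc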

How the data were processed

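Hippocampal RNA was extracted, amplified with RiboAmp HS or alternatively MessageAmp II, labelled and hybridised, and the scanner files do not say which rat received which kit. The deposited intensity of each spot was background subtracted and detrended by Agilent Feature Extraction 9.5.3.1, per the file headers, and was not normalized between arrays. The authors' deposited matrix holds linear ratio values, which the authors normalized to each array's 75th percentile before deposit, per their methods. It served as an alternative. Its arrays differed by at most 0.667% at matched percentiles, so they nearly shared one distribution. Median differences of the 10 genes from TBI were -0.13, -0.24 and -0.33 by this matrix with PMI-006, JM6 and E33. They were -0.20, -0.25 and -0.36 by quantile normalization and 0.62, 0.73 and 0.86 by the main scaling. The matrix is thus not counted as independent of quantile normalization. Of 42877 non-control spots, those marked as outliers were left out, and spots of 1 probe were averaged. Following the methods, values were scaled to the array's 75th percentile over its detected probes before log2 was taken. Probes detected on all arrays of 1 or more groups, and measured in each group, were tested with 1 limma 3.58.1 model in R 4.3.3 over 16 arrays (10 residual degrees of freedom) with calls where the adjusted p (Benjamini-Hochberg) was under 0.05. The model was tested on simulated data. limma replaced the methods' t-test, which was an alternative, because groups hold 2 or 3 arrays. A gene was counted by its brightest tested probe. A fold against a group with no array well above background is a bound: the brighter group's mean over the higher of the dim probe's own signal and the lowest signal well above background on each array. Bounds are described as at least N-fold. The number of arrays limits the precision, and the p-values measure the spread between rats of a group that also share slides.

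Named genes were all 10 members, at most 3 called genes per list and comparison by the largest difference, and the 5 genes most like the members' profile. The members and the lists were chosen with earlier results of these data known. Fli1 and Erg were named together with their values under both normalizations after these had been seen. Alternatives were other background correction, normalization, filters, blocks, weights, tests and leaving out each array. The result of 1 gene of the lists is not reported here.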

Additional observations from a re-analysis of the deposited data

How the results depend on the processing

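Among results for single genes, 1839 kept their side of the threshold under the alternatives, 1604 of them with the same sign and 235, never called, with the other. Of the rest 43 became called, 58 lost their call and 11 turned with a call in at least 1 fit. In TBI vs. Sham, the 1 call (Cldn5) stayed with the slide as a random block and became 0 with the slide as a fixed block, with the replicate number as a block, without a filter, with the GC trend removed, from the authors' matrix, with the compared groups alone, under normexp, quantile or E1A spot scaling, by the methods' t-test after Benjamini-Hochberg adjustment and without the 3 arrays rich in choroid plexus markers, an alternative added after seeing the data. It became 3 by that t-test unadjusted, and 0 to 1 with each array left out. In TBI vs. Naive, 0 became 1 by the unadjusted t-test, and in Sham vs. Naive 0 became 1 over probes detected on all arrays, and in both the range was 0 to 1 with each array left out. The 4 higher and 0 lower calls in TBI+PMI vs. TBI became 1 higher and 1 lower, 2 in all, with the percentile taken over all probes, the authors' matrix or quantile, 1 higher and 2 lower with the GC trend removed, 2 higher by the adjusted t-test or E1A scaling, and 1 higher under normexp. In TBI+JM6 vs. TBI they became 2 higher under normexp, 1 higher and 2 lower under quantile, 2 higher and 2 lower from the authors' matrix or with the GC trend removed, and 3 higher and 2 lower with the percentile over all probes. In TBI+E33 vs. TBI they became 1 higher and 1 lower, 2 in all, with the percentile over all probes or quantile, 2 higher and 1 lower from the authors' matrix, 1 higher and 3 lower with the GC trend removed, and 1 higher under normexp or E1A scaling. With each array left out the drug counts ran from 3 to 5. In TBI+JM6 vs. TBI+PMI 0 became 1 by the unadjusted t-test, and in TBI+JM6 vs. TBI+E33 0 became 1 with array weights (Cdh5, -0.83). The direction of Tek turned in TBI+PMI vs. TBI to -0.13 (authors' matrix), -0.30 (normexp) and -0.33 (quantile), and in TBI+E33 vs. TBI to -0.55, -0.18 and -0.50. With all probes of a gene averaged, Tjp1 turned to 0.48, 0.66 and 0.49 in the PMI-006, JM6 and E33 comparisons and Vwf to 0.95 with E33, by construction because the dim probes enter. Slc2a1 turned to -1.02 with E33 once the GC trend was removed. The causes of the other changes were not tested. A fixed slide block could not be fitted for drug groups against TBI, and the random block gave 4, 5 and 6 higher calls, with Ocln (0.85 with JM6, 0.99 with E33) and Kdr (0.85 with E33) added. Same-numbered arrays shared only a number (36 pairs, r -0.32 to 0.21), and the replicate block moved no count other than the one named. Tek and Vwf probe 3, at or near background, limit what can be read from them.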
